A study of Homo sapiens with 4 samples.

Results

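Long intergenic non-coding RNAs are transcripts that carry no long open reading frame and mostly lie outside protein-coding genes, and those without an assigned function are named LINC with a serial number. The set described here holds 54 such genes in KM-H2, a human Hodgkin lymphoma line grown from a pleural effusion. A gene was taken when its symbol in the platform annotation began with LINC and digits without an antisense suffix, and when its brightest one-gene probe set had a mean intensity of at least 20 over the 4 arrays. Of 840 LINC genes on the array 54 met this, or 6.43%, against 50.1% of 16516 protein-coding genes, and the other 786 lay below 20, 670 of them below 10. The genes were thus selected on their mean intensity over both groups, so their levels are given as a description. The difference between the groups was not used directly. All 54 are annotated as long non-coding RNA in RefSeq (GRCh38.p14), and 51 overlap no protein-coding gene there, while LINC01089 overlaps SETD1B, LINC00312 overlaps LMCD1 and LINC01410 overlaps LOC107987020.

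The control group was KM-H2 transduced with a non-silencing construct (2 arrays), and the knockdown group was KM-H2 transduced with a lentiviral pGIPZ vector whose small hairpin is directed at exon 2 of BX648577 within the CIITA-BX648577 fusion (2 arrays). Both groups are the same cell line, were transduced and share that fusion, and 1 hairpin was used, so its action on other transcripts was not tested. The labels do not say whether the replicates were separate cultures, so p-values measure the spread between these arrays, which may be technical. The comparison asked which transcripts differ once the fusion transcript is targeted. PIERCE2, formerly C15orf65 and the gene that supplies the BX648577 end of the fusion, read 880 and 947 in control and 621 and 590 in knockdown, so both knockdown arrays lay below both controls. Its log2 difference was -0.58 (SE 0.10), with a limma adjusted p of 0.251 with 1 prior variance for all genes and 9.65e-05 with a prior variance that follows intensity. CIITA, at the other end of the fusion, read 59.6 and 65.1 against 60.6 and 53.6, so its groups overlapped.

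The arms of the hairpin are shown because they are what the knockdown vector expresses. They are the longest stretch of the hairpin insert that pairs with itself, in the 5′ to 3′ direction.
upstream arm: gacagccacctcactatcaaata
downstream arm: tatttgatagtgaggtggctgtc

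Long intergenic RNAs act in the nucleus as scaffolds or guides for chromatin proteins and on neighbouring genes, or in the cytoplasm on messenger RNA stability and translation. Most are transcribed by RNA polymerase II, spliced and polyadenylated, at lower levels and in fewer cell types than messenger RNAs. A few carry small open reading frames that are translated, and many have been described only as transcripts.

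Promoter stretches from RefSeq (GRCh38.p14), 250 bases before to 50 after a start, were matched for 34 of the 54 genes. That is under 80% of them, so a comparison of promoter composition with other genes is void. Shown are the promoters of those matched genes that a fit called between the groups, each on its gene's own strand, with capitals marking the letters of the TATA box (TATAAA), the GC box (GGGCGG) and the CCAAT box (CCAAT) on either strand. No capitals overlap between these motifs in the 3 promoters.
LINC00621, chr13:22916320-22916619, minus strand: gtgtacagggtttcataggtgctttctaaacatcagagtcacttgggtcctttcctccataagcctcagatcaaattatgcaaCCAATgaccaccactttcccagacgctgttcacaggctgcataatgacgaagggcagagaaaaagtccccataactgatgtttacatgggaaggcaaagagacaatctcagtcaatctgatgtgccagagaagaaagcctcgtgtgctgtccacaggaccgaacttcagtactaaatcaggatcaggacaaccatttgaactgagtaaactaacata
LINC01089, chr12:121802897-121803196, minus strand: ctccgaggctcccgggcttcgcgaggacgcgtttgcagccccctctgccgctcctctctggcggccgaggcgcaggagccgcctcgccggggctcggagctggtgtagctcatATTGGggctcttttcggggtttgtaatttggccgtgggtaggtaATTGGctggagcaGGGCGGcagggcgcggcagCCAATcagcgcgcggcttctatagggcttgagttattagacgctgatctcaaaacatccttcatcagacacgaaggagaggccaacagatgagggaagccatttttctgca
LINC02078, chr17:79707016-79707315, plus strand: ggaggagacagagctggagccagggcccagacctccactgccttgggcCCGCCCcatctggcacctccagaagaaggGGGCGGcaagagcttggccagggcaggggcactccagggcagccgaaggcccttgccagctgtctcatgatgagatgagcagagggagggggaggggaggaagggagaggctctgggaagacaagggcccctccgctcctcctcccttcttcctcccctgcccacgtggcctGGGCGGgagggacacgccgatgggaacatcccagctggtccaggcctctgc
The LINC00621 window holds 1 CCAAT match and has 44.7% G and C, that of LINC01089 holds 3 CCAAT matches and 1 GC box match at 61.0%, and that of LINC02078 holds 3 GC box matches at 68.0%. Of 27305 RefSeq promoters of the same length, 44.6% hold the GC box letters, 35.7% the CCAAT letters and 11.95% the TATA letters. The matches are descriptions of these letters only.

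The KM-H2 label was checked against Hodgkin and B-lineage genes. Of 9 such genes 7 had means of at least 20, among them TNFRSF8 (CD30) at 118, IRF4 at 241 and CD74 at 1807, while CCL17 stood at 15.7 and CCL22 at the floor of 1. The epithelial, mesothelial and erythroid markers were all below 20, and MS4A1 and CD79B, B cell genes often lost in Hodgkin cells, stood at 8.38 and 9.17, beside CD79A at 34.6. The myeloid genes CSF1R and CD14 stood at 82.6 and 22.4 and LYZ at only 4.1, with summed myeloid lists of 107 to 111. Of the T cell genes only CD3D was bright, at 188 in control and 239 in knockdown, beside a mean of 4.89 for CD3E, and the summed T cell list was 195 to 206 in control and 242 to 280 in knockdown. The part of that shift in the results on LINC genes was not tested. Mean array intensities lay between 53.3 and 54.6 and medians between 8.12 and 9.28, the knockdown medians being the lower ones.

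The LINC genes were dim. In all, 5 genes had means of 100 or more, 6 lay between 50 and 100, 18 between 30 and 50, and 25 between 20 and 30, with a median of 31.4. On single arrays 38 of the 54 reached 20 on all 4. The signal of a probe set depends on its probes, so the order of genes by brightness is one of signals and not of transcript amounts. LINC00621 had the highest mean, 236, and ranked 1427 among the 12921 genes tested, and LINC00339 the lowest, 20.3, at rank 8555. Of the 54 probe sets, 39 were plain, 9 were of the _s_at type (shared by several transcripts), 3 of the _a_at type (several transcripts of 1 gene) and 3 of the _x_at type, whose probes can match other sequences. The _x_at probe sets were those of LINC00621, LINC00623 and LINC01000, so their levels are uncertain, and the levels from _s_at probe sets may include related transcripts.

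**Figure D1:**
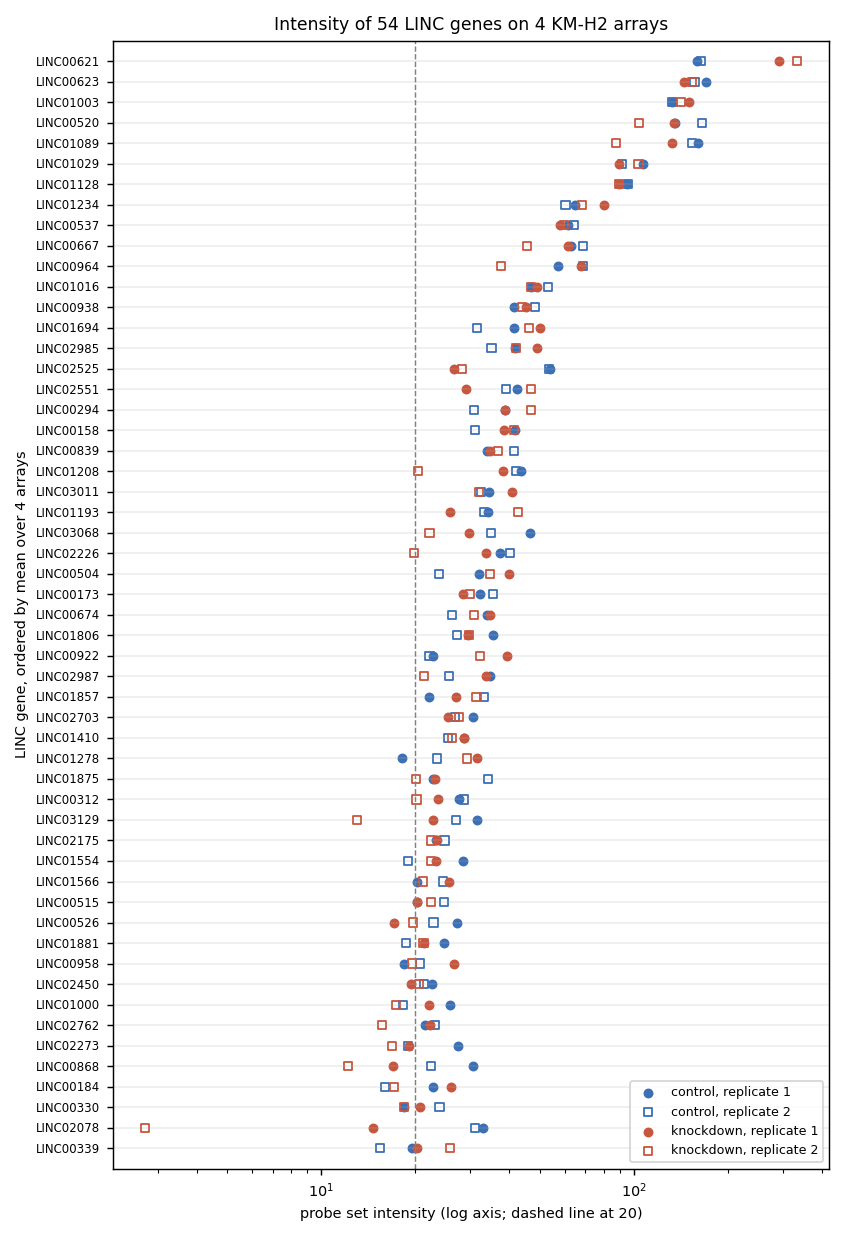
Intensity (log axis) of each of the 54 LINC genes on each array, ordered by mean, with control in blue, knockdown in red, replicate 1 filled and replicate 2 open. Most genes lie between 20 and 50, LINC00621 stands apart at the top with both knockdown arrays above both controls, and LINC02078 has its knockdown arrays at 14.6 and 2.74.

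Of the 10 brightest members, LINC00621 and LINC01089 are described with the called genes further on, and the other 8 had smaller differences between the groups. LINC00623 read 170 and 156 in control and 144 and 154 in knockdown. LINC01003 read 132 and 132 in control and 150 and 142 in knockdown. LINC01128 read 95.1 and 95.5 against 89.4 and 89.7, nearly equal within each group. In LINC01003 the knockdown arrays lay above the controls, and in LINC00623 and LINC01128 below them, with differences of the group means of 0.13, -0.12 and -0.08 on the log2 scale. In LINC01003 and LINC01128 that difference exceeded the gap between replicates, and in LINC00623 it did so narrowly, with a gap of 0.11 in control. Group means vary less than single arrays, so this does not show a difference beyond the replicates. LINC01029 read 107 and 91.5 in control and 89.7 and 103 in knockdown, so its groups overlapped. LINC00537 read 61.5 and 64.3 against 58.2 and 59.7. LINC01234, for which RefSeq lists the alias MBOP and from which a short peptide has been described, read 65.02 and 60.42 against 80.04 and 68.13. Neither LINC00537 nor LINC01234 had overlapping groups. LINC00520, known as LEENE for its action on endothelial nitric oxide synthase, read 135 and 165 in control and 135 and 104 in knockdown, with the lower control only just above the upper knockdown array. LINC00667 read 62.8 and 68.8 in control and 61.6 and 45.5 in knockdown, and the gap between its knockdown arrays was wider than that between the groups' nearest arrays. None of these 8 genes was called by either fit described next.

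Knockdown was compared with control in limma on log2(intensity + 16), a scale that understates the change of dim probe sets, with p-values adjusted over all 12921 genes by the Benjamini-Hochberg method and a threshold of 0.05. The main fit used 1 prior variance for all genes (the common-prior fit) and called 0 of the 54 LINC genes, where it called 0.0155% of all genes tested and 0.0233% of those with a mean of at least 20. At an unadjusted p below 0.05 it had 3 LINC genes higher and 6 lower, against 6.42% and 7.68% of all genes and 7.84% and 6.42% of those with a mean of at least 20. The second fit let the prior variance follow intensity (the intensity-trend fit) and called 4 LINC genes, 7.41% of them, against 3.01% of all genes tested and 4.29% of the genes tested with a mean of at least 20. In that fit LINC00621 was higher in knockdown (1 gene, background 1.61%, or 2.37% at a mean of at least 20) and LINC02525, LINC02078 and LINC01089 were lower (3 genes, background 1.40%, or 1.92%). LINC02078, with a knockdown mean of 8.69, met the rule only through its control arrays. The rule itself thus favoured its lower call, which these counts include. In RNA from whole cultures, fewer cells with a transcript and less of it per cell cannot be told apart.

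**Figure D2:**
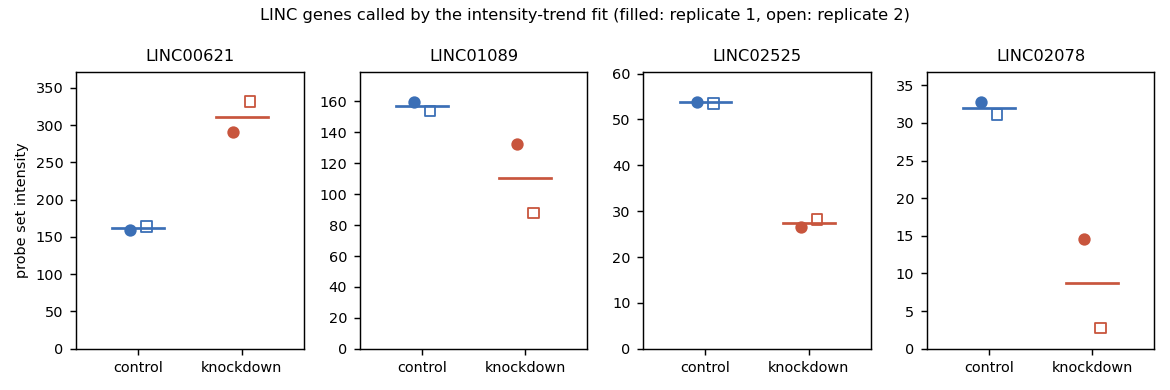
Intensity of the 4 LINC genes called by the intensity-trend fit, each on its own axis from 0, with 1 point per array and a bar at the group mean. In all 4 genes the groups do not overlap; the knockdown points lie close together in LINC02525 and far apart in LINC01089 and LINC02078.

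LINC00621 read 159 and 164 in control and 290 and 332 in knockdown. Both knockdown arrays were well above both controls, and the knockdown arrays differed from each other more than the controls did. The group means were 162 ± 3.30 and 311 ± 29.2 (SD, n = 2 each), 1.92 times as high in knockdown. The log2 difference was 0.88 (SE 0.11), and limma gave adjusted p = 0.195 with the common prior and 2.97e-05 with the intensity trend. Its probe set is the only one-gene probe set of LINC00621 here and is of the _x_at type, so which transcripts it reads is uncertain. A flanking protein-coding gene in RefSeq is FGF9, which encodes a fibroblast growth factor. FGF9 stood near the floor on all arrays, at 4.67, 5.57, 5.63 and 3.63.

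LINC02525, listed in RefSeq with the alias lncNB1, a non-coding RNA studied in neuroblastoma, read 53.9 and 53.5 in control and 26.5 and 28.2 in knockdown. The arrays within each group were nearly equal and the groups far apart. The means were 53.7 ± 0.28 and 27.3 ± 1.15 (SD, n = 2 each), and knockdown held 50.9% of the control signal. The log2 difference was -0.69 (SE 0.10), and limma gave adjusted p = 0.225 with the common prior and 0.00596 with the intensity trend. It also rests on 1 probe set, of the plain type. It lies between the beta-tubulin genes TUBB2A and TUBB2B, which went slightly the other way without being called. TUBB2A read 278 and 281 in control and 319 and 299 in knockdown (log2 difference 0.13, adjusted p = 0.578 in the common-prior limma fit and 0.393 in the intensity-trend fit). TUBB2B read 420 and 410 against 453 and 423 (0.07, adjusted p = 0.773 and 0.658).

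LINC02078 read 32.8 and 31.1 in control and 14.6 and 2.74 in knockdown. Both knockdown arrays were below both controls, and they differed from each other by 0.71 on the log2 scale, the widest gap within a group among the 54 genes. The means were 32.0 ± 1.23 and 8.69 ± 8.41 (SD, n = 2 each), with a log2 difference of -1.001 (SE 0.22). In limma the adjusted p was 0.251 with the common prior and 0.00921 with the intensity trend. The intensity-trend call was lost without control replicate 1 (adjusted p = 0.0568), without control replicate 2 (0.0578) and without knockdown replicate 2 (0.0859), where the difference was -0.65, and also with no filter (0.0760) and with the mean of probe sets (0.135). In the common-prior fit the gene was called without knockdown replicate 1 (adjusted p = 0.0264, difference -1.36). It has 1 probe set, and its mean of 20.3 put it just inside the rule on the strength of the control arrays. Of its flanking genes RBFOX3, which encodes the neuronal nuclear protein NeuN, stood at 6.32, 14.3, 5.08 and 7.67 over the arrays, and ENPP7 was not analysed here.

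LINC01089, also named LIMT and studied for an inhibitory role in breast cancer metastasis, read 160 and 154 in control and 133 and 87.9 in knockdown. The controls were close together, and knockdown replicate 2 lay far below replicate 1. The means were 157 ± 4.33 and 110 ± 31.7 (SD, n = 2 each), and knockdown held 70.3% of the control signal. The log2 difference was -0.48 (SE 0.17), and limma gave adjusted p = 0.304 with the common prior and 0.0470 with the intensity trend, close to the threshold. That call was lost without control replicate 1 (adjusted p = 0.156), control replicate 2 (0.137) or knockdown replicate 2 (0.608), and without the last array the difference was -0.22. It was also lost with no filter (0.159), a filter at 20 (0.0571), median centring (0.0556), a pseudocount of 1 (0.0579) and the mean of probe sets (0.474). Its probe set is of the _s_at type, and its other probe sets were too dim to bear on it, at means of 7.34 and 2.91. SETD1B, the histone methyltransferase gene that it overlaps, read 44.6 and 39.0 in control and 45.3 and 42.0 in knockdown. SETD1B was not called (log2 difference 0.05, adjusted p = 0.880 in the common-prior limma fit and 0.899 in the intensity-trend fit), and the flanking gene HPD had a mean of 1.75.

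The remaining 50 genes passed neither fit, with log2 differences from -0.47 to 0.42 and adjusted p-values of at least 0.256 in the common-prior limma fit and at least 0.105 in the intensity-trend fit. Among those with higher knockdown means, LINC00922 read 22.8 and 22.2 in control and 39.2 and 32.2 in knockdown (log2 difference 0.42, SE 0.11). LINC01278 read 18.1 and 23.5 against 31.6 and 29.2 (0.34, SE 0.11), while its other probe set, at a mean of 5.24, gave -0.02 and the mean of both 0.16. LINC01694 read 41.5 and 31.6 against 49.9 and 46.1 (0.29, SE 0.12). LINC00504 read 32.1 and 23.9 against 39.9 and 34.7 (0.28, SE 0.13). In each of these 4 genes the groups did not overlap, and in LINC01694 and LINC00504 the nearest arrays of the groups were closer than the controls were to each other. The same holds for LINC00339, at 19.6 and 15.4 in control and 20.3 and 25.8 in knockdown (0.22, SE 0.12).

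Among those with lower knockdown means, LINC00868 read 30.5 and 22.5 in control and 17.0 and 12.2 in knockdown (log2 difference -0.47, SE 0.14). LINC03068 read 46.5 and 35.0 against 29.6 and 22.2 (-0.44, SE 0.14). LINC03129 read 31.6 and 27.0 against 22.9 and 13.0 (-0.43, SE 0.16). All 3 had both knockdown arrays below both controls, and in each the arrays of a group lay farther apart than the nearest arrays of the 2 groups. LINC00868 and LINC03129 had knockdown means below 20 and met the rule through their control arrays, as did LINC02078. In all, 9 members had a knockdown mean below 20 and 3 a control mean below 20, and such a gene passed only through the group where it is higher.

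Over the 54 genes, 18 differences were above 0 and 36 below, with a median of -0.05 and quartiles of -0.21 and 0.08. Over all genes tested the median was -0.01 and 47.4% lay above 0, and over the genes with a mean of at least 20 the median was 0.01. With each array centred on its median the median of the LINC genes was 0.0060 and 28 lay above 0, while that of all genes became 0.05. The sign of the list's median thus turned with the scaling. Without centring that median lay below the median of all genes. Median centring raised every difference by the same amount, so it could not change this order and is no check of it. Knockdown and control did not overlap in 26 of the 54 LINC genes, 9 higher and 17 lower. Of all genes tested 22.7% were higher and 24.6% lower, against 27.9% and 23.9% of those with a mean of at least 20. Both directions together made 48.1% of the LINC genes, near the background of 47.3% and 51.8%. By direction, more LINC genes were lower than higher, and the reverse held for all genes with a mean of at least 20. That split was not tested. The difference was below 0.1 in size in 25 of the 54. The median size of the difference, taken between group means, was 0.13. Single arrays of 1 group differed by a median of 0.16 in control and 0.14 in knockdown. Group means vary less than single arrays, so these sizes cannot be compared directly and do not show whether the groups differed beyond the replicates.

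**Figure D3:**
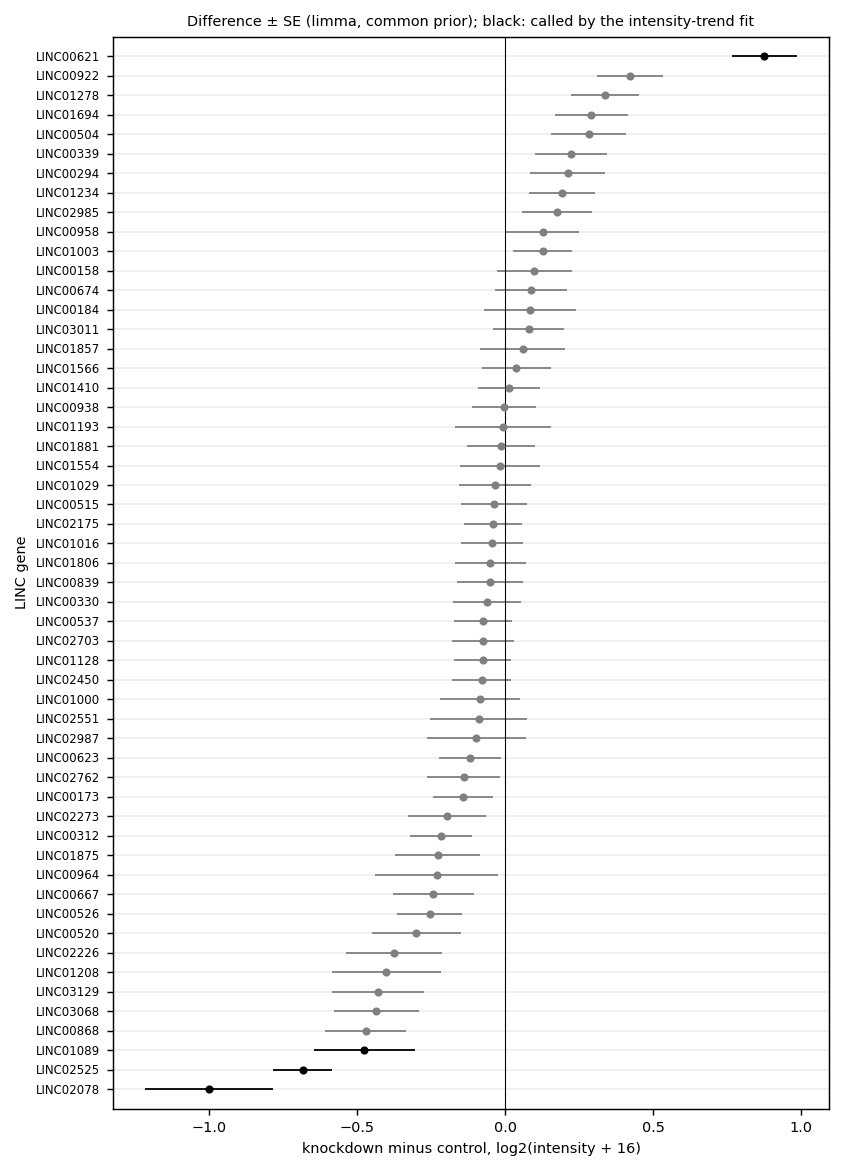
Log2(intensity + 16) difference, knockdown minus control, for each of the 54 LINC genes, with bars of ± 1 SE from the common-prior fit and the 4 genes called by the intensity-trend fit in black. LINC00621 lies at 0.88 and LINC02078 at -1.001, and 25 genes lie within 0.1 of 0.

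**Figure D4:**
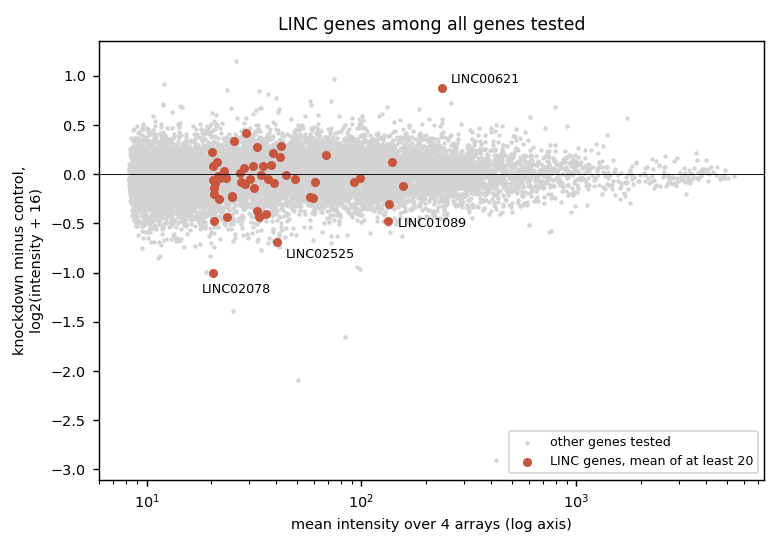
Difference (knockdown minus control, log2) against mean intensity (log axis) for all 12921 genes tested, with the LINC genes in red. The LINC genes have means from 20.3 to 236, with dimmer and brighter genes on either side, and most are within the cloud of the other genes.

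Knockdown replicate 2 was the low array for several LINC genes. Its value lay over 0.3 (log2) below that of knockdown replicate 1 in 10 of 54 genes (18.5%) and over 0.3 above it in 2 (3.70%), against 7.09% and 3.65% of all genes tested and 4.73% and 1.44% of those with a mean of at least 20. In control, 2 genes differed by over 0.3 in each direction. Besides LINC02078 and LINC01089, LINC00964 read 57.2 and 68.5 in control and 67.9 and 37.5 in knockdown. LINC01208 read 43.6 and 41.9 against 38.2 and 20.5. In both, knockdown replicate 1 was near the controls and replicate 2 far below. The opposite order held for LINC02551, at 42.3 and 39.1 in control and 29.1 and 46.8 in knockdown, and for LINC01193, also named CT60, at 34.3 and 33.3 against 25.9 and 42.5. Without knockdown replicate 2 the median of the list was -0.02. It was -0.05 without control replicate 1, -0.06 without control replicate 2 and -0.05 without knockdown replicate 1. The part of any array in that median was not tested.

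Several probe sets allowed a check within a gene for part of the list. Of the 54 genes 33 had 1 one-gene probe set and 21 had more, with 35 further probe sets at 2.18% to 85.7% of the brightest one's mean. Only 12 of these, of 10 genes, had means of at least 10. In 8 of the 12 the sign of the difference was that of the brightest probe set and in 4 it was the opposite, with a median distance of 0.07. Over all 35, most of them dim, the sign was the same in 22 and the opposite in 13, with a median distance of 0.17. Probe sets of 1 gene share the RNA of the same arrays and are not replicates. No further probe set was called by limma on every probe set, in the intensity-trend fit. In that wider limma fit only LINC00621 of the 4 called genes kept its call (adjusted p = 0.00523). The brightest probe sets of LINC02525 (0.0521), LINC02078 (0.114) and LINC01089 (0.224) were not called there, so their calls depend on the set tested. No gene called at its brightest probe set had a second one of at least 10.

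Among probe sets with means of at least 10 the closest agreement was in LINC01128, at 18.3 and 19.3 in control and 18.9 and 15.6 in knockdown on its second brightest (log2 difference -0.07, against -0.08 on the brightest). Its 4 dimmer probe sets, with means below 10, gave 0.0042, -0.26, -0.25 and -0.17. At means of at least 10, LINC00537 gave -0.12 and -0.0026 on its dimmer probe sets against -0.07, and LINC00674 gave 0.03 and 0.16 against 0.09. LINC01016 gave -0.0085 against -0.05 and LINC02987 -0.07 against -0.10. Apart from the 0.16 (SE 0.11) of LINC00674, all of these differences at means of at least 10 are smaller than their SE of 0.10 to 0.21. LINC00667 gave -0.46 (SE 0.25) on a dim probe set whose 27.4 in control replicate 2 stood apart from 8.51, 8.92 and 6.58 on the other arrays, against -0.24 on the brightest. At means of at least 10, disagreement was widest in LINC01806, with 19.1 and 18.9 in control and 25.4 and 29.6 in knockdown on the second probe set (0.31, SE 0.11), against -0.05 on the brightest. LINC01410 gave -0.28 (SE 0.11) on a dim probe set, at 11.6 and 15.3 against 8.18 and 8.10, where the brightest gave 0.01. Over all further probe sets the widest distance was 0.57, at the probe set of LINC01089 with a mean of 2.91, which gave 0.10 against -0.48.

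**Figure D5:**
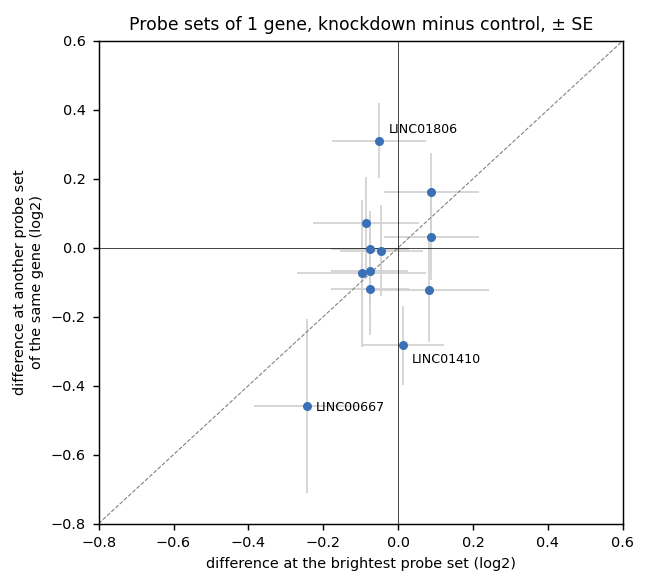
Difference (knockdown minus control, log2) at each further probe set (vertical axis) against that at the brightest one (horizontal axis), for probe sets with a mean of at least 10 in 10 LINC genes, with bars of ± 1 SE and a dashed line of equality. Most points lie within 1 SE of the line near 0, and LINC01806 and LINC01410 lie off it.

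The threshold of 20 divides genes of nearly equal signal. Just inside it, LINC00330 read 18.5 and 23.9 in control and 20.7 and 18.4 in knockdown, beside LINC02078 and LINC00339 given above. Just outside, LINC00301 read 28.8, 12.2, 24.6 and 12.3, LINC01119 16.8, 21.4, 12.7 and 26.8, and LINC00689 14.1, 19.5, 25.9 and 16.8 over the control and knockdown arrays. The means of these 6 genes lay between 19.1 and 20.4, and LINC00330, LINC00301, LINC01119 and LINC00689 varied within groups as much as between them. With the threshold at 10, which takes 170 genes, the common-prior fit still called 0 and the intensity-trend fit 5 of the 170, where it called 3.01% of all genes tested. The added one was LINC02532, a dim gene named after its values were seen.

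The protein-coding genes that flank the 54 on either side numbered 102 in RefSeq, of which 60 were tested. The common-prior fit called 0 of them and the intensity-trend fit 5 (8.33%), against 3.01% of all genes tested and 4.29% of those with a mean of at least 20. These were named after their values were seen. MTSS1 beside LINC00964 stood at 105 and 75.01, CSTF3 beside LINC00294 at 380 and 274, and TANK beside LINC01806 at 277 and 206, as control and knockdown means. FBXW7 beside LINC02273 stood at 175 and 129, and CDC42 beside LINC00339 at 222 and 296. None of the 5 LINC genes themselves was called, and only in LINC00339 did the groups not overlap. LINC00294 had a higher knockdown mean while CSTF3 had a lower one. In the other pairs both means went the same way, though the second probe set of LINC01806 went the opposite way. A relation between neighbours was not tested.

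Among other kinds of non-coding gene with means of at least 20, antisense RNAs numbered 81 of 792 on the array (median difference -0.07), and genes known only by LOC numbers 31 of 506 (-0.07). The intensity-trend fit called 0 higher and 3 lower of the former and 0 higher and 2 lower of the latter. The common-prior fit called 1 antisense RNA, which was lower, and 0 of the LOC genes, where it called 2 of all 12921 genes tested. At an unadjusted p below 0.05 it had 7 higher and 10 lower of the antisense RNAs and 0 and 7 of the LOC genes. Divergent, intronic and overlapping transcripts numbered 28 of 233 with 0 called by either limma fit (5 at an unadjusted p below 0.05), and small nucleolar RNA host genes 4 of 11 with 0 called (1 at that p). Of 3 microRNA host genes the intensity-trend fit called MIR1915HG lower, at 42.2 in control and 23.3 in knockdown. The common-prior fit called 0 of these 3. Of 34 well-known long non-coding RNAs 17 reached 20 and 0 were called by either fit (2 at that p), with MALAT1, a nuclear speckle RNA, at 1851 and 1758 in control and 1923 and 2023 in knockdown, and NORAD, which binds Pumilio proteins, at 197 and 187 against 179 and 172. Protein-coding genes of this brightness had 4.25% called by the intensity-trend fit, 200 higher and 152 lower, with a median of 0.01. These classes are set side by side by counts, and a difference between them was not tested.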

How the data were processed

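Total RNA of 4 KM-H2 samples was measured on single-colour oligonucleotide arrays after single-cycle biotin labelling, per the labels' protocols. The files hold deposited values of linear intensity for 54613 probe sets. The sources used here do not give how the authors made them from the scan. Between 971 and 1080 values per array are exactly 1, and depth in the sense of counts does not apply: the number of arrays limits the precision. Array medians spanned 0.07 on the log2 scale, so no centring was done.

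Probe sets were named through the platform annotation (41091 with 1 gene, 1801 with several, 11721 with none), and those with 1 gene were used. Another 13 probe sets with means of at least 20 list a LINC gene among several genes and were left out. Values were turned into log2(intensity + 16). Each gene was taken at its brightest probe set, and probe sets with a mean log2 value below 4.60, the median of all probe sets, were left out, which kept 12921 of 19775 genes. Fits used lmFit and eBayes of limma 3.58.1 in R 4.3.3, two-sided, and were tested on simulated data. Alternatives were the intensity trend, robust hyperparameters, filters, quantile normalization, median centring, pseudocounts of 1 and 64, the replicate block, each array left out, the mean of probe sets, and thresholds of 10 and 40 for members, and an adjusted p threshold of 0.10.

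Named are LINC00621 and LINC02525, genes called by either fit, the 10 brightest, the 6 with the largest difference in each direction, the 8 brightest with a second probe set of at least 10 and any whose probe sets differ in sign by over 0.3, the 3 genes on each side of the threshold of 20, the 6 with the widest gap within a group, the flanking genes of the called ones, PIERCE2 and CIITA. Of these flanking genes, some are not reported here. The members and lists were chosen with earlier results of these data known.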

Additional observations from a re-analysis of the deposited data

How the results depend on the processing

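Counts of called LINC genes depended on how the variance was pooled. The common-prior fit gave 0 with robust hyperparameters, no filter, quantile normalization, median centring, a pseudocount of 1, the mean of probe sets, the replicate block, member thresholds of 10 and 40 and a threshold of 0.10. It gave 2 with every gene held to a mean of 20 (LINC00621, adjusted p = 0.0386, and LINC02525, 0.0449), where 15 genes in all were called, and 4 with a pseudocount of 64, where 418 were, against 2 genes in all in its main form. It gave 0 to 1 with single arrays left out. The intensity-trend fit gave 4 in its main form. With alternatives chosen after seeing the data it gave 2 with no filter, 2 with the mean of probe sets and 2 to 8 with single arrays left out. A lone array in a group is there assumed to vary like the other group. With the replicate number as a block it gave 9, and called 1011 genes in all against 389 in its main form. Same-numbered arrays showed no shared deviation over all genes tested (r = -0.0089 across genes). That value cannot decide whether the numbers mark pairs of cultures. LINC00621 and LINC02525 were called in all 12 alternatives to the intensity-trend fit, LINC02078 in 7 and LINC01089 in 4. The limma fit on every probe set is not among these 12, and there LINC02525 was not called (adjusted p = 0.0521). Over all genes the intensity-trend fit gave 208 higher and 181 lower, and 487 and 129 with median centring. The median of the LINC genes moved from -0.05 to 0.0060 with median centring, and that of all genes tested from -0.01 to 0.05.

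Of 30 named LINC genes 20 kept their direction under all 14 alternatives, and 10, all uncalled, turned it under some. Median centring raised every difference by the same amount, so negative ones near 0 turned. The cause of the other turns was not tested. With median centring LINC01029 gave 0.022, LINC01193 0.050, LINC01806 0.0066 and LINC01016 0.012. With a pseudocount of 64 LINC01193 gave 0.0015. With the mean of probe sets LINC01410 gave -0.14 and LINC01806 0.13. With single arrays left out, differences ran from -0.13 to 0.063 for LINC01029, -0.33 to 0.15 for LINC02551, -0.25 to 0.23 for LINC01193, -0.56 to 0.093 for LINC00964, -0.17 to 0.044 for LINC00330, -0.039 to 0.064 for LINC01410, -0.30 to 0.11 for LINC02987, -0.18 to 0.077 for LINC01806, -0.034 to 0.21 for LINC00674 and -0.11 to 0.023 for LINC01016. For genes with means near 20 replicates often differed as much as the groups, which limits what their differences show.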
